A study of Mus musculus with 2 samples.

Results

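The 9 genes C1qa, C1qb, C1qc, C2, C3, C4b, Cfb, C6 and C9, out of 32285 genes counted in mouse liver, encode components of complement. They were taken by name, as 3 chains made by macrophages (C1q) and 6 components named as made by hepatocytes. Their UMIs (unique molecular identifiers, 1 per captured transcript) were summed in each of 2 libraries over small barcodes (from 200 to under 400 UMIs), middle barcodes (from 500 to under 1000) and large barcodes (1000 or more), and are given as CPM, counts per 1000000 UMIs of the same barcodes. Pairs of values below are control first and GS_KO second, and sets of 3 run from small to large barcodes. The control library came from 1 Glul f/f mouse infected with AAV8-GFP. The GS_KO library came from 1 Glul f/f mouse infected with AAV8-Cre, in which recombination is meant to remove Glul, the gene of glutamine synthetase. Both mice were tumour-free, were 11 weeks old at infection and had their livers taken 2 weeks later, and both therefore carried the floxed allele and a virus. The sources used here do not name the promoter that drove Cre. Hepatocytes and purified non-parenchymal cells from livers perfused with collagenase II at 0.3 mg/mL entered a 10x 5-prime version 3 preparation. In what proportion they were combined is not stated, and the labels speak of both single cells and nuclei.

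Complement is a cascade of plasma proteins. C1q, a bundle of A, B and C chains, binds antibodies and altered surfaces and starts the classical pathway, in which C4 and C2 are cleaved to build the enzyme that cuts C3. In the alternative pathway C3 fragments recruit factor B (Cfb), which amplifies C3 cleavage, and the terminal proteins, C6 and C9 among them, assemble into the membrane attack complex. The liver is the main source of most plasma components, whereas the C1q chains come mainly from macrophages, which in the liver are the resident Kupffer cells.

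The libraries held 166037 and 175937 barcodes (control, GS_KO) with a median of 352 and 304 UMIs. The small, middle and large sizes held 116552 and 143687, 11989 and 10037, and 1703 and 1834 barcodes. Of the barcode sequences 8108 occurred in both libraries, which is 4.88% and 4.61%. Malat1, a transcript kept in the nucleus, stood at 1709 and 1365 CPM in the smallest size, 7812 and 17706 CPM in the middle one, and 19613 and 37630 CPM in the largest. Mitochondrial genes took 9.32% and 8.38%, 7.26% and 5.47%, and 3.64% and 2.41% of UMIs. Small and large barcodes and both libraries thus differed in RNA makeup, and whether this bears on the values given here was not tested. Glul stood at 113 and 9.78, 118 and 27.8, and 124 and 31.5 CPM. The liver marker Alb was at 41519 and 42165, 34622 and 28331, and 21383 and 15041 CPM. Each group is 1 mouse, so no test between the groups was possible: intervals are 95% intervals of counting error alone, and the spread between mice is not known. They take UMIs as evenly spread over barcodes. C1q UMIs were clustered in some barcodes, as described below, so the C1q intervals are too narrow. A sum over barcodes also cannot tell more cells of a type from more RNA per cell.

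All 9 members were higher in the GS_KO library in every barcode size. At least 2-fold higher were 8 of 9 members in small barcodes (all but C3), 7 in middle barcodes (all but C3 and Cfb) and 6 in large barcodes (all but C3, Cfb and C6). Among all genes with at least 20 UMIs, 13.2%, 15.6% and 12.8% were 2-fold or more higher and 4.25%, 3.7% and 5.6% lower. No member was 2-fold lower. The median log2 ratio of the members was 1.31, 1.18 and 1.06, beside -0.01, 0.15 and 0.04 over all genes tested. The 3 C1q chains and the other 6 members formed separate ranges: every C1q chain lay between 6.25-fold and 10.8-fold higher, and every other member between 1.36-fold and 3.07-fold higher.

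**Figure D1:**
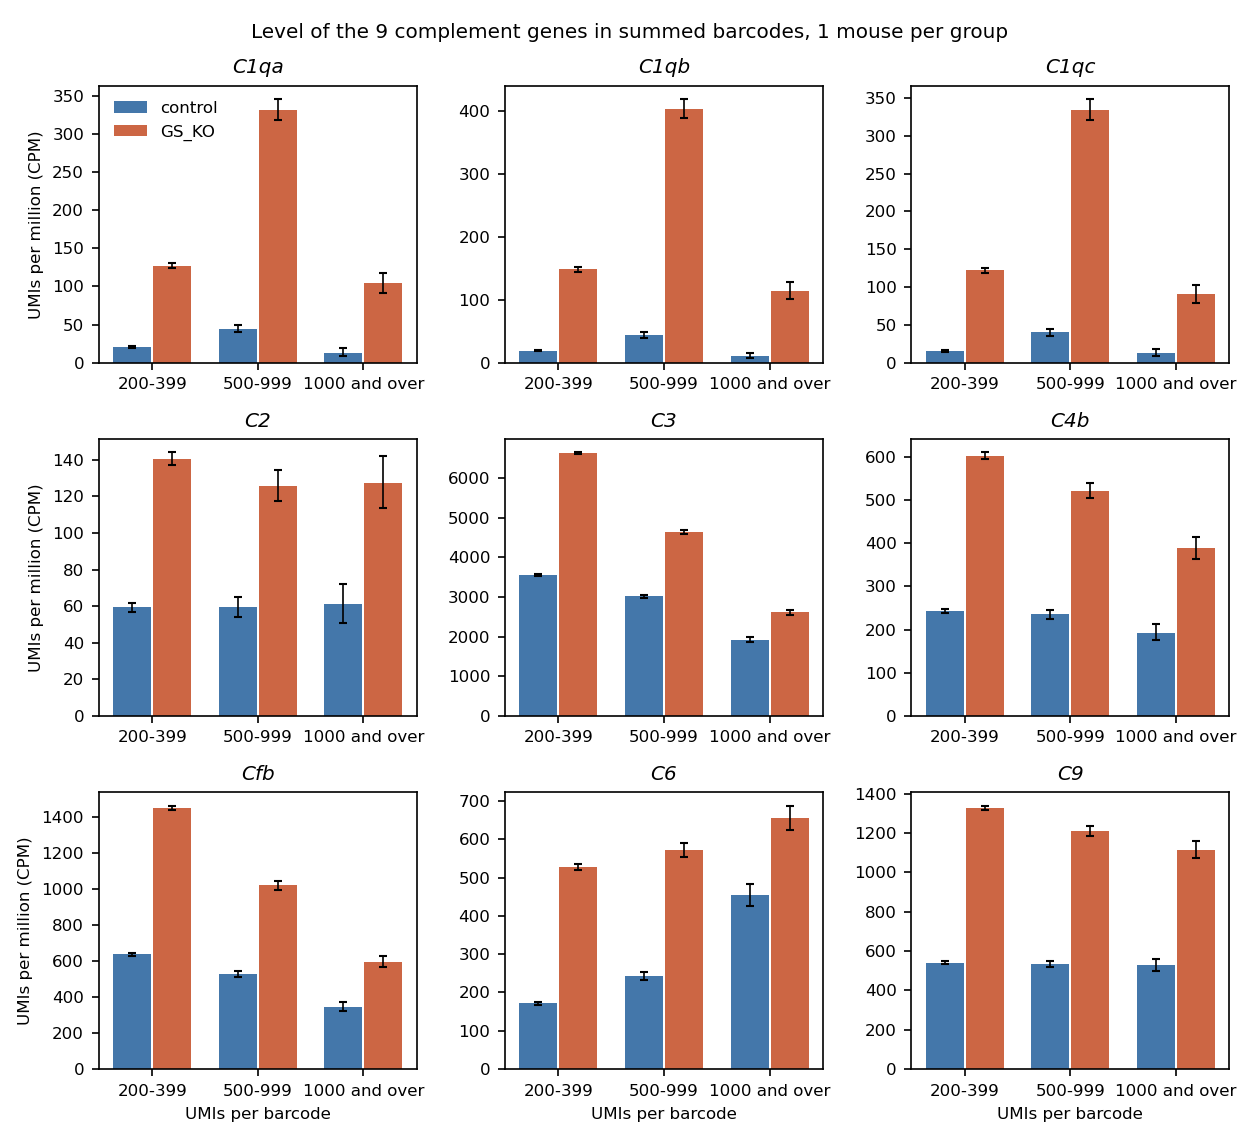
Level of each member (CPM) by barcode size in the control and GS_KO libraries, with 1 mouse per group. Bars are summed CPM and error bars are exact 95% Poisson intervals. GS_KO bars are taller in every pair, the C1q chains are highest in middle barcodes, and C6 alone is higher in large than in small barcodes of both libraries.

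The C1q genes lie together on chromosome 4 within 18.7 kb (mm10, minus strand), with C1qb (ENSMUSG00000036905) at 136880129 to 136886187, C1qc (ENSMUSG00000036896) at 136889804 to 136893065 and C1qa (ENSMUSG00000036887) at 136895917 to 136898803. Their promoters are shown because the chains were higher together in GS_KO barcodes of every size. RefSeq promoter sequences (GRCm38.p6, the patch series of mm10) matched C1qb and C1qc, and C1qa is named only. The bases upstream of both the RefSeq and GENCODE starts are printed 5′ to 3′ on the minus strand, chr4:136886201-136886450 for C1qb and chr4:136893066-136893164 for C1qc. Capitals mark the motif AGGAAGT, a core bound by ETS factors such as the macrophage factor PU.1, read here on the opposite strand.
C1qb: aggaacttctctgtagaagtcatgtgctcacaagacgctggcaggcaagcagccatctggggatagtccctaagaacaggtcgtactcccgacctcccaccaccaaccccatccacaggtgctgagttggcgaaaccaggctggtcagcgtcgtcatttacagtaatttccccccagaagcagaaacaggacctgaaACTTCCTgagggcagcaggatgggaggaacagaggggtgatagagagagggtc
C1qc: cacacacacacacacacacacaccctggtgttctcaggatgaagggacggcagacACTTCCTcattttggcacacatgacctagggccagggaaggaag
Counted back from the RefSeq start, the match lies 53 to 47 bases before it in C1qb and 195 to 189 bases before it in C1qc. On either strand 7.69% of 32851 mouse RefSeq promoter windows hold this motif. A match describes letters and does not show binding.

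C1qa, the A chain, stood at 20.4 CPM (18.9 to 21.8) for the control and 127 CPM (124 to 131) for GS_KO in small barcodes. In middle barcodes it stood at 44.2 and 332 CPM, and in large barcodes at 13.3 (29 UMIs) and 104 CPM (255 UMIs). The GS_KO library was thus 6.25-fold (5.79 to 6.74), 7.51-fold (6.71 to 8.44) and 7.85-fold (5.34 to 11.96) higher, and the intervals of the levels did not overlap in any size. C1qb, the B chain, stood at 19.3 and 148, 44.3 and 403, and 10.5 and 114 CPM. Its ratio was the highest of the chains in each size except the smallest, where C1qc equalled it, at 7.70-fold (7.14 to 8.33), 9.10-fold (8.14 to 10.2) and 10.8-fold (7.07 to 17.4). C1qc, the C chain, stood at 15.9 and 122, 39.9 and 334, and 12.4 and 90.4 CPM, or 7.70-fold, 8.38-fold and 7.31-fold higher. The intervals of the chains' ratios overlapped in large barcodes, where the control library held only 23 to 29 UMIs of each chain.

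Summed over the chains, C1q stood at 55.5 and 398 CPM (7.17-fold, 6.85 to 7.50), 128 and 1069 CPM (8.33-fold, 7.80 to 8.90), and 36.2 and 309 CPM (8.54-fold, 6.76 to 10.9). In barcodes of 2000 or more UMIs, of which there were 62 (control) and 116 (GS_KO), C1q had 0 control UMIs and 79 GS_KO UMIs. With the control sum set to 3 counts over the library, the ratio would be 13.3-fold. That value leaves out the counting error of the GS_KO UMIs and is not a lower limit. The balance of the chains differed slightly in small barcodes. C1qa made up 36.7% of control C1q UMIs (34.6 to 38.8, exact binomial) and 32.0% of GS_KO C1q UMIs (31.3 to 32.7) there, while C1qb made up 34.7% (32.7 to 36.8) and 37.3% (36.6 to 38.02). The C1qb intervals overlap slightly and those of C1qa are apart. These intervals take each UMI as independent, although C1q UMIs were clustered in barcodes. In middle barcodes C1qa took 34.4% and 31.0% and C1qb 34.5% and 37.7%, and there, as in large barcodes, the intervals of every chain's share overlapped.

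Of all member UMIs, C1q made up 1.06% and 3.60%, 2.71% and 11.7%, and 1.02% and 5.32%. Markers of macrophages moved with it. The 12 Kupffer markers chosen without C1q summed to 97.3 and 516 CPM (5.31-fold, 5.12 to 5.50), 235 and 1259 CPM (5.36-fold), and 77.9 and 399.02 CPM (5.12-fold, 4.35 to 6.06), with 12, 11 and 11 of the 12 genes higher. Per Kupffer marker UMI, C1q stood at 0.570 and 0.771 UMIs (1.35-fold higher, 1.28 to 1.43), 0.546 and 0.850 (1.55-fold, 1.43 to 1.69), and 0.465 and 0.774 (1.67-fold, 1.26 to 2.21). The size of that excess depended on the marker, and a few markers showed none. Marco was 7.71-fold higher in small barcodes, above summed C1q at 7.17-fold. In large barcodes Marco (10.4-fold, 3 control UMIs) and Fcer1g (10.3-fold, 12 control UMIs) lay above C1q at 8.54-fold. In middle barcodes Folr2 lay slightly above it. The counting intervals of these markers include the C1q ratio, and every other marker of the 12 lay below C1q in each size. Against Clec4f, a lectin of resident Kupffer cells, C1q was 1.91-fold, 2.39-fold and 2.52-fold higher per UMI. Against Cd5l, a secreted macrophage protein, it was 1.18-fold (1.07 to 1.31), 1.11-fold (0.955 to 1.29) and 1.43-fold (0.890 to 2.29) higher, and the last 2 intervals include no difference.

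Summed, the monocyte and dendritic markers were further apart than C1q, but not every one of them was. That list of 8 genes, led by the MHC class II chaperone Cd74 (24.8 and 827 CPM in small barcodes), summed to 73.7 and 1522, 171 and 3418, and 50.4 and 1069 CPM, which is 20.7-fold, 19.9-fold and 21.2-fold. Of its genes 8, 8 and 7 were higher in the GS_KO library, and 4 (H2-Eb1, Ccr2, Itgax and S100a4) were at 0 in a library in large barcodes. The 4 neutrophil markers summed to 2.63 and 20.1 CPM, the 4 plasma and B markers to 2.55 and 14.1 CPM, and the 4 T and NK markers to 1.21 and 7.11 CPM in small barcodes. Of the 4 cholangiocyte markers, Sox9 gave 65 of 68 control UMIs and 922 of 930 GS_KO UMIs there, while Krt19 had 2 and 2 UMIs, Krt7 1 and 0 and Epcam 0 and 6. The 8 endothelial (LSEC) markers, at 131 and 171 CPM, and the 8 stellate markers, at 280 and 313 CPM, differed by 1.30-fold and 1.12-fold. The part of these other cells in the C1q difference was not tested.

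**Figure D2:**
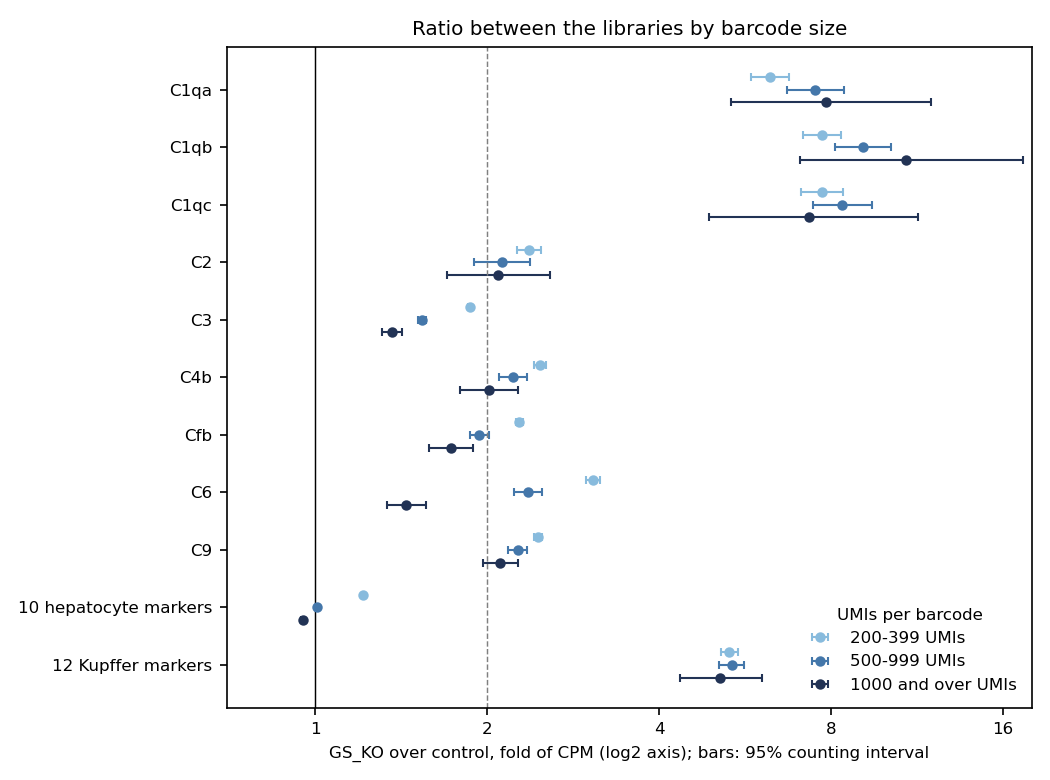
GS_KO over control ratio of CPM (log2 axis) of the members, the summed 10 hepatocyte markers and the summed 12 Kupffer markers, by barcode size, with 95% counting intervals. The dashed line is 2-fold. The C1q chains lie to the right of the Kupffer markers, and the 6 other members lie to the right of the hepatocyte markers and move left from small to large barcodes.

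Barcodes with UMIs of at least 2 of the 12 Kupffer markers were then taken as Kupffer marker barcodes. They made up 0.381% and 1.68%, 2.56% and 12.1%, and 1.88% and 8.29% of barcodes, which is 444 and 2408, 307 and 1216, and 32 and 152. They held 35.7% and 33.6%, 71.9% and 79.4%, and 51.9% and 68.9% of all C1q UMIs. In large barcodes their C1q stood at 979 CPM (703 to 1329) for the control and 2404 CPM (2202 to 2620) for GS_KO. In middle barcodes it stood at 3775 and 7368 CPM, and in small ones at 5091 and 7316 CPM. The GS_KO library thus had a larger share of marker barcodes and a higher C1q level in the class of 2 or more marker genes. The class is a range and not a type. Among large barcodes 14 and 54 barcodes had exactly 2 marker genes and 58 and 190 had 1. With exactly 2 marker genes, C1q stood at 3589 and 4150 CPM in small barcodes and 878 and 1227 CPM in large ones. The intervals of each pair overlapped (3152 to 4069 and 3949 to 4358, and 492 to 1448 and 992 to 1502). In middle barcodes it stood at 1963 and 3773 CPM, with intervals apart. With 3 or more marker genes it stood at 6354 and 10373, 4931 and 8898, and 1049 and 3049 CPM. Those intervals were apart in each size.

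Outside the marker barcodes C1q stood at 35.8 and 269, 37.0 and 249, and 17.8 and 106 CPM, so the difference between the libraries was also present where Kupffer markers were absent or rare. After each barcode of 1000 or more UMIs was thinned to 1000, 48.4% of control marker barcodes held C1q UMIs (30.2 to 66.9, 15 of 31) and 75.2% of GS_KO ones did (66.4 to 82.7, 88 of 117). Before thinning these were 16 of 32 and 77.6%. In the remaining barcodes thinned shares were 1.79% and 8.97% (2.09% and 9.93% before thinning), taken here as the background of each library, and the marker barcodes lay far above it. The 3 chains were found together in 64 control and 603 GS_KO middle barcodes, and 96.9% and 93.2% of these were marker barcodes. Barcodes with 1 chain alone numbered 277 and 1110, of which 29.2% and 15.8% were.

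In middle barcodes, counts per barcode also set C1q apart from the other members. The variance of C1q UMIs per barcode was 4.01 times its mean (control) and 5.72 times (GS_KO) in middle barcodes, where evenly spread RNA gives a value near 1. The single chains stood at 1.95 to 2.14 and 2.49 to 2.65. For C3 it was 1.19 and 1.40, for C6 1.15 and 1.08, and for C9 1.09 and 1.11, below each single chain. This did not hold in large control barcodes, where C1qc, at 1.28, lay below C3, at 1.36, and C6, at 1.31. The barcode richest in C1q held 12 and 20 UMIs.

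Over the 6 sums (2 libraries by 3 sizes), the 5 non-members closest to the mean centred pattern of the C1q chains, among 9279 genes with at least 10 UMIs in each sum, were Fcer1g and Tyrobp, signalling adaptors of myeloid cells, Lyz2, a lysozyme, Ctss, a lysosomal protease, and Cd5l. Their mean absolute differences from C1q were 0.08, 0.17, 0.09, 0.13 and 0.16 on the log2 scale. Fcer1g stood at 11.0 and 72.8, 23.1 and 188, and 5.50 and 56.5 CPM. Fcer1g, Tyrobp and Cd5l are also among the 12 Kupffer markers, and Lyz2 is among the monocyte and dendritic markers.

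The remaining members have their genes on chromosomes 15 and 17. C4b (ENSMUSG00000073418, 34728380 to 34743882), Cfb (ENSMUSG00000090231, 34856374 to 34862518) and C2 (ENSMUSG00000024371, 34862604 to 34898265) lie within 170 kb on the minus strand of chromosome 17, in the MHC class III region, and C3 (ENSMUSG00000024164) lies apart at 57203970 to 57228136. C6 (ENSMUSG00000022181, 4727175 to 4814967) and C9 (ENSMUSG00000022149, 6445327 to 6498751) lie on the plus strand of chromosome 15. C2 and Cfb are both overlapped by a read-through gene, Gm20547, that the files do not count, and C2 also overlaps Zbtb12, which they do. Reads in those overlaps are uncertain. RefSeq promoters matched C3, C6 and C9, while C2, C4b and Cfb are named only. The promoters of C3 (chr17:57228137-57228386, minus strand) and C9 (chr15:6445096-6445326, plus strand) are shown because each holds, in capitals, the motif TTGCNNAA of C/EBP factors, which drive many liver genes.
C3: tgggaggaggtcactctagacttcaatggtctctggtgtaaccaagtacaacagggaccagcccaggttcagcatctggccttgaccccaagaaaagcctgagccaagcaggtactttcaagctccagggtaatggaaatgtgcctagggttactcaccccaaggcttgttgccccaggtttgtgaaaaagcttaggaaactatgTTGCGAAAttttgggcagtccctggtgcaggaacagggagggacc
C9: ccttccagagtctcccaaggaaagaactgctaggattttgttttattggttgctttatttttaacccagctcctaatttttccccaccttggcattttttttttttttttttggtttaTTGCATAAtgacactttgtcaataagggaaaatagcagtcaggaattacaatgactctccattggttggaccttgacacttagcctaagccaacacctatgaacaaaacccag
The match lies 45 to 38 bases before the RefSeq start of C3 and 132 to 125 bases before that of C9, and 9.56% of mouse promoter windows hold the motif on either strand. The STAT motif TTCNNNGAA (in 7.02% of windows) and the TATA box TATAAA (12.4%) were not found in the printed sequences, and the upstream window of C6 held none of the 4 motifs. The motifs were chosen with the sequences in view.

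C3, the protein on which all pathways converge, had the smallest ratio of the members in each size. It stood at 3549 CPM (3530 to 3568) and 6617 CPM (6593 to 6641) in small barcodes, 3013 and 4635 CPM in middle ones, and 1921 and 2616 CPM in large ones. The ratios were 1.86-fold (1.85 to 1.88), 1.54-fold (1.51 to 1.56) and 1.36-fold (1.31 to 1.42), under 2-fold in every size. Its share of the UMIs of these 6 members was lower in the GS_KO library, at 68.2% and 62.0%, 65.3% and 57.3%, and 54.8% and 47.6%. Small barcodes thinned to 200 UMIs held C3 in 50.8% and 72.9% of cases (67.9% and 85.1% before thinning). C3 RNA was thus found in most small barcodes. C1q was found in 1.30% and 8.15% of them before thinning, but at a far lower level, so these shares do not compare spread. C2, also at a low level, was found in 1.91% and 4.11%.

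Among the components of the C3-cleaving enzymes, Cfb stood at 637 and 1450 CPM (2.28-fold, 2.24 to 2.31), 527 and 1020 CPM (1.94-fold, 1.86 to 2.01) and 345 and 595 CPM (1.72-fold, 1.58 to 1.89). C2, its counterpart in the classical pathway, stood at 59.4 and 141 CPM (2.37-fold, 2.25 to 2.48), 59.3 and 126 CPM (2.12-fold, 1.89 to 2.38) and 60.9 and 127 CPM (2.09-fold, 1.70 to 2.58). C4b, which encodes C4, stood at 244 and 603 CPM (2.48-fold, 2.42 to 2.53), 236 and 522 CPM (2.22-fold, 2.09 to 2.34) and 193 and 388 CPM (2.01-fold, 1.79 to 2.26). Cfb was thus under 2-fold in middle and large barcodes. C2 and C4b lay so close to 2-fold in large barcodes that their intervals include it, and with an estimate of free RNA subtracted they were 2.00-fold and 1.87-fold there, and C2 was 1.91-fold in middle barcodes. C2 was also 1.98-fold in middle barcodes under median-of-ratios scaling and 1.34-fold in barcodes of 2000 or more UMIs, and C4b was 1.97-fold in the shallower large barcodes.

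C4a, the near-copy of C4b, gave a different picture. It stood at 17.7 and 17.8 CPM (1.00-fold, 0.904 to 1.12), 62.6 and 52.8 CPM, and 126 and 67.5 CPM, the last 1.86-fold lower. The longest transcripts of the pair are 95.9% identical over 5378 aligned bases. The sources used here do not say how reads that match both were assigned, so the split between C4a and C4b is uncertain.

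Of the terminal proteins, C9, which forms the pore, stood at 541 and 1328 CPM (2.46-fold, 2.42 to 2.50), 535 and 1210 CPM (2.26-fold, 2.18 to 2.35) and 529 and 1114 CPM (2.11-fold, 1.97 to 2.26). Its level differed by less than 1.20-fold between small and large barcodes in each library, and in barcodes of 2000 or more UMIs its ratio was 1.79-fold. C6, which joins the complex after C5b, had the widest range of ratios: 172 and 527 CPM (3.07-fold, 2.98 to 3.15), 243 and 572 CPM (2.36-fold, 2.23 to 2.49) and 454 and 655 CPM (1.44-fold, 1.33 to 1.56). The C6 ratio in middle barcodes fell to 1.56-fold when only those with at most 5% mitochondrial UMIs were used, and to 1.88-fold in all middle barcodes with an estimate of free RNA subtracted.

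In all 6 of these members the ratio was lower at each step from small to large barcodes, and it fell by 0.35 on the log2 scale in the median. Of 5955 genes with at least 100 UMIs in each size, 19.7% showed lower ratios at each step, and the median change was 0.10. Of the 10 hepatocyte markers 6 did so too, with a median change of -0.38. Summed, the 6 members stood at 5202 and 10666 CPM (2.05-fold), 4612 and 8084 CPM (1.75-fold) and 3502 and 5495 CPM (1.57-fold), while the 10 hepatocyte markers were 1.21-fold, 1.01-fold and 0.951-fold. Per 1000 hepatocyte marker UMIs, the 6 members stood at 50.1 and 84.9 UMIs (1.70-fold, 1.69 to 1.70), 53.4 and 92.8 (1.74-fold, 1.71 to 1.76), and 63.5 and 105 (1.65-fold, 1.60 to 1.70). On that scale the ratio stayed between 1.65-fold and 1.74-fold, with no steady fall across sizes. Without Alb, which takes a large part of the marker UMIs, it was 1.53-fold, 1.54-fold and 1.42-fold.

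Single members differed on the same scale. C2 stood at 1.96-fold, 2.10-fold and 2.20-fold per hepatocyte marker UMI, C4b at 2.05-fold, 2.20-fold and 2.11-fold and C9 at 2.03-fold, 2.24-fold and 2.22-fold. Cfb stood at 1.88-fold, 1.92-fold and 1.81-fold and C3 at 1.54-fold, 1.53-fold and 1.43-fold. C6 fell from 2.54-fold (2.47 to 2.61) to 2.34-fold (2.21 to 2.47) and 1.52-fold (1.40 to 1.64), and C3 was likewise lower at each step, with small (1.53 to 1.55) and large (1.38 to 1.49) intervals apart.

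The label of C6 as hepatocyte-made was checked against the marker barcodes, and C6 departed from the other 5. In barcodes with at least 2 Kupffer markers and fewer than 2 endothelial and 2 stellate markers, C6 stood at 537 CPM (423 to 672) against 170 CPM (165 to 174) in small control barcodes with no such marker, which is 3.17-fold higher (2.49 to 3.97). In the GS_KO library it stood at 860 against 521 CPM (1.65-fold, 1.52 to 1.78). In middle barcodes it stood at 423 against 242 CPM (control, 1.75-fold, 1.35 to 2.23) and at 758 against 554 CPM (GS_KO, 1.37-fold, 1.24 to 1.51). In large barcodes the difference was not detectable, at 429 against 456 CPM and 708 against 669 CPM, with only 16 control C6 UMIs in 28 marker barcodes. These comparisons were chosen after the values were seen.

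Hepatocyte transcripts moved the other way in the same barcodes. The plasma iron carrier Trf stood at 0.572-fold and 0.584-fold of its level in marker-free small barcodes and at 0.726-fold and 0.694-fold in middle ones. C9 stood at 0.558-fold (0.404 to 0.752) and 0.573-fold (0.527 to 0.622) in small barcodes, and Cfb at 0.651-fold and 0.623-fold, close to Trf. C3 stood at 0.823-fold and 0.708-fold. C4b lay nearer to no difference, at 1.16-fold (0.828 to 1.58) and 0.899-fold (0.814 to 0.992). C2, with 6 control UMIs there, stood at 0.717-fold (0.263 to 1.56) and 0.567-fold (0.433 to 0.730). Kupffer marker barcodes thus still held hepatocyte transcripts, and values inside them mix RNA of more than 1 cell type.

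Endothelial and stellate marker barcodes gave no such excess of C6. In those with at least 2 endothelial markers C6 stood at 0.853-fold (0.579 to 1.21) and 0.799-fold (0.668 to 0.947) among small barcodes, and in those with at least 2 stellate markers at 1.07-fold (0.762 to 1.47) and 1.01-fold (0.845 to 1.21). C1q in Kupffer marker barcodes was 176-fold (159 to 194) and 29.8-fold (28.8 to 30.8) above marker-free ones at that size. In small and middle barcodes of both libraries the C6 fold thus lay below C1q and above the other 5 members.

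**Figure D3:**
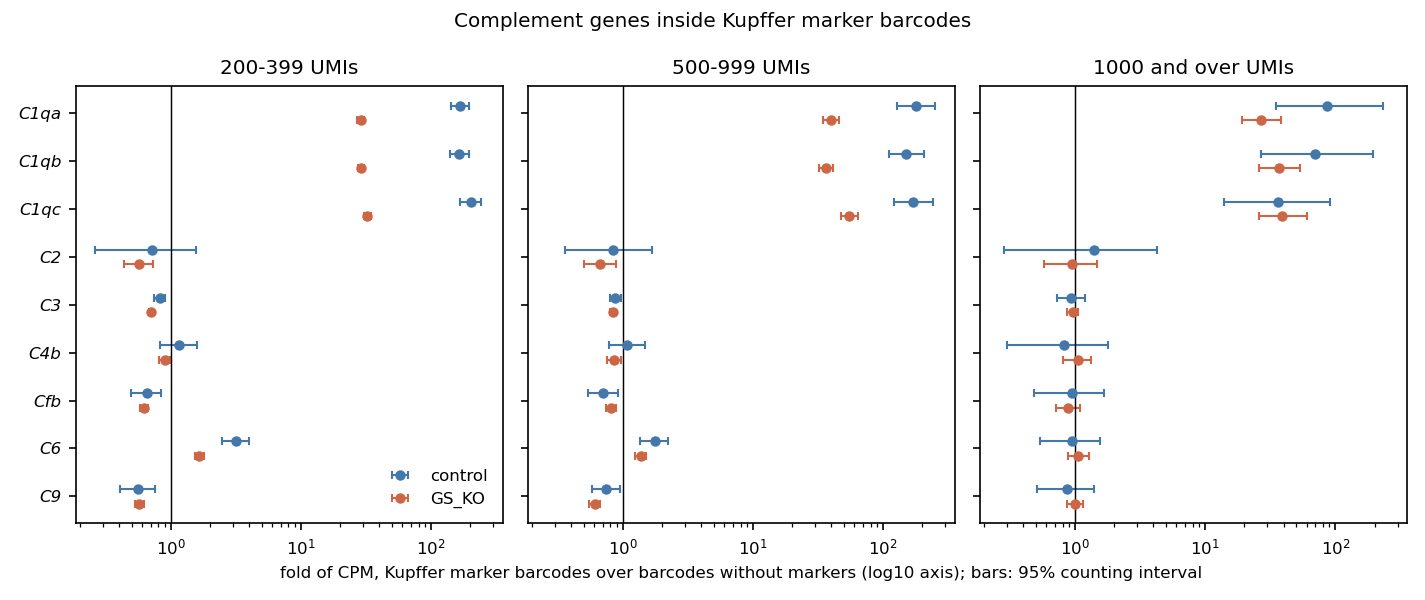
Fold of CPM of each member in Kupffer marker barcodes over barcodes without Kupffer, endothelial or stellate markers (log10 axis), by barcode size and library, with 95% counting intervals. The C1q chains lie far to the right, C6 lies right of 1 in the 2 smaller sizes, and C3, Cfb and C9 lie left of 1 there.

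C6 also behaved differently across barcode sizes. It stood 2.64-fold higher in large than in small barcodes of the control library (2.47 to 2.82) and 1.24-fold higher in those of the GS_KO library. C3 was 1.85-fold and 2.53-fold lower in the large barcodes, and Cfb 1.85-fold and 2.44-fold lower, while C2 and C9 differed by less than 1.20-fold. Across 35 complement genes other than C1q, the receptors, Fcna and Cfp, longer genes tended to be higher in large than in small barcodes. Not all were: Cfi, of 39.4 kb, stood at 0.482-fold (control) and 0.353-fold (GS_KO) in large over small barcodes. Pearson r between log2 gene length and the log2 change with size came to 0.49 (control) and 0.52 (GS_KO), and Spearman rho to 0.64 and 0.62, given as a description over genes that share these libraries. Large barcodes also held more Malat1, and the part of nuclear RNA in these changes was not tested.

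**Figure D4:**
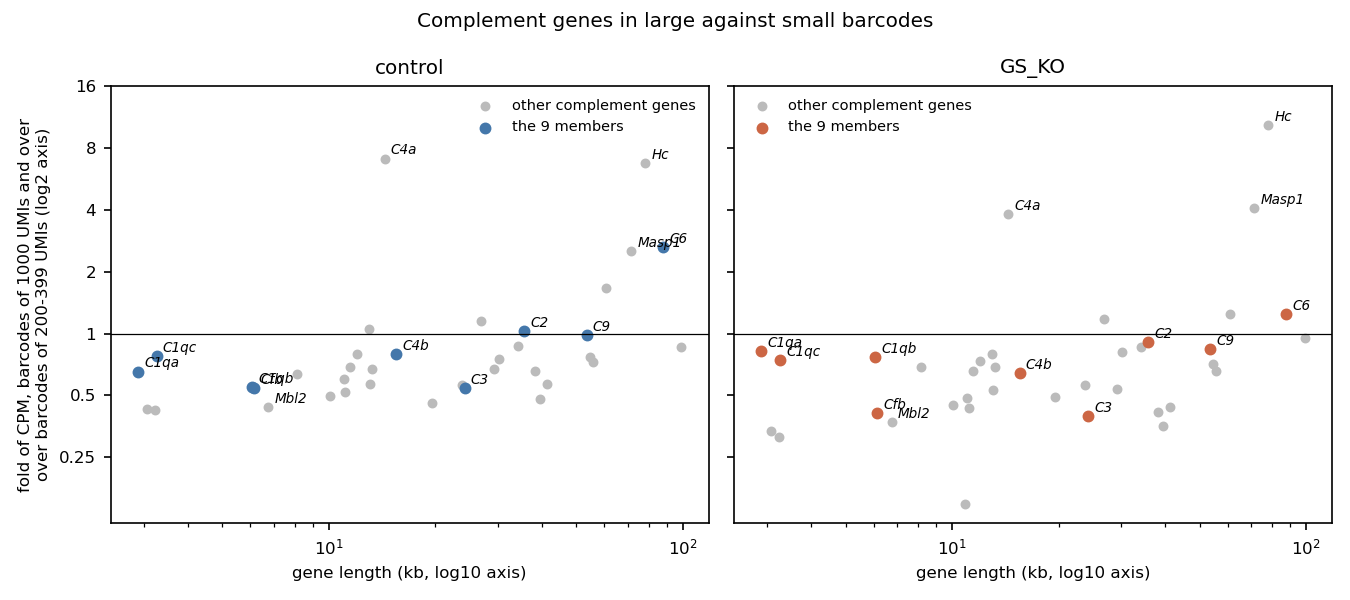
Fold of CPM in large barcodes over small barcodes (log2 axis) against gene length (kb, log10 axis), 1 panel per library. Points are complement genes with at least 100 UMIs in both sizes together, and those at 0 UMIs in a size are not drawn. Some long genes such as C6 and Hc lie above 1 and short ones such as Cfb lie below. Other long genes, Cfi and Cpb2 among them, lie below 1, and C4a, of middle length, lies well above it.

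NF-kB signalling is a known inducer of several complement genes, and barcodes with UMIs of at least 2 of 12 NF-kB genes were compared with barcodes without any, among those of 1000 or more UMIs thinned to 1000 and holding fewer than 2 Kupffer markers. With and without such genes there were 520 and 537 barcodes in the GS_KO library and 59 and 1261 in the control library. In the GS_KO library Cfb stood at 719 CPM (648 to 796) with and 497 CPM (439 to 561) without NF-kB genes, which is 1.45-fold higher (1.23 to 1.70). C2 was 1.45-fold (1.03 to 2.06) and C3 1.17-fold (1.09 to 1.26) higher. C4b, at 0.901-fold (0.735 to 1.10), C6, at 1.13-fold (0.975 to 1.32), and C9, at 1.08-fold (0.961 to 1.22), had intervals that include no difference. Trf was 1.12-fold higher and Alb stood at 0.935-fold in the same barcodes, Malat1 stood at 39627 and 36497 CPM with and without NF-kB genes, and C1q at 0.778-fold (0.538 to 1.12). Cfb in the control library was 1.52-fold (1.01 to 2.20) higher, on 30 UMIs with NF-kB genes, and C3 stood at 0.967-fold. With barcodes of at least 1 NF-kB gene in place of 2, the GS_KO ratios were 1.35-fold (1.17 to 1.55) for Cfb, 1.11-fold (1.04 to 1.18) for C3 and 1.13-fold (1.02 to 1.25) for C9. C2, at 1.22-fold (0.898 to 1.67), and Cfb in the control library, at 1.15-fold (0.951 to 1.38), then had intervals that include no difference.

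For C3, the 5 non-members with the closest centred pattern over the 6 sums were Ambp, Cpb2, Igtp, Prxl2a and Vps28. Their mean absolute differences were 0.04, 0.05, 0.05, 0.06 and 0.06 on the log2 scale. Ambp, the precursor of a plasma protease inhibitor, stood at 1207 and 2092, 1014 and 1483, and 614 and 859 CPM. Cpb2, a plasma carboxypeptidase that inactivates complement anaphylatoxins, stood at 478 and 849, 403 and 603, and 271 and 374 CPM.

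The other complement genes numbered 45 listed and 44 in the files, and 40, 38 and 32 of them had at least 20 UMIs in the 3 sizes. Of these 12, 12 and 7 were at least 2-fold higher in the GS_KO library and 0 at least 2-fold lower, with a median log2 ratio of 0.67, 0.56 and 0.45. The shares over all genes were the 13.2%, 15.6% and 12.8% given above. By role, the higher genes were 6 of 8, 6 of 6 and 1 of 1 receptors, 2 of 12, 1 of 12 and 1 of 11 early classical and lectin genes, 1 of 4, 2 of 4 and 1 of 4 terminal genes, 2, 2 and 3 of 15 regulators, and Cfp of the alternative pathway in each size.

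Itgax, a listed receptor with 1 and 26 UMIs in small barcodes, was 23.0-fold higher there (3.78 to 943). Other receptors and genes known from macrophages ranged from ratios near those of the C1q chains to ratios under 2-fold. Vsig4, a C3b receptor of Kupffer cells that is also among the 12 Kupffer markers, stood at 13.1 and 70.6 CPM (5.40-fold, 4.91 to 5.95) in small barcodes, and 4.84-fold and 4.96-fold higher in the other sizes. C3ar1, the receptor of the C3a fragment, stood at 0.762 and 4.93 CPM (6.47-fold, 4.37 to 9.89), and Itgb2, the beta chain of complement receptor 3, at 1.16 and 7.32 CPM (6.33-fold, 4.61 to 8.89) in the same barcodes. Itgam, its alpha chain, was 5.56-fold higher (3.14 to 10.6) on 102 UMIs in all. C5ar1, the C5a receptor, stood at 1.18 and 3.90 CPM (3.30-fold, 2.36 to 4.70). The 2 listed receptors under 2-fold there were C5ar2 (1.88-fold, 1.13 to 3.24) and Cd93 (1.73-fold, 1.20 to 2.53), named after their values were seen. Cfp, properdin, which stabilises the alternative pathway enzyme, stood at 4.02 and 27.0 CPM (6.73-fold, 5.68 to 8.02) and was 7.78-fold and 3.73-fold higher in the larger sizes. Fcna, a ficolin that starts the lectin pathway, was 3.92-fold, 4.59-fold and 3.71-fold higher. In Kupffer marker barcodes Cfp was 109-fold and 25.1-fold, and Fcna 104-fold and 22.6-fold, above marker-free small barcodes, beside 176-fold and 29.8-fold for C1q.

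Among genes known from hepatocytes, those downstream of C3 and those that restrain it were on both sides of 2-fold. Hc, which encodes C5, stood at 70.2 and 101 CPM (1.44-fold), 213 and 573 CPM (2.69-fold) and 474 and 1036 CPM (2.18-fold, 2.03 to 2.35). C8a stood at 253 and 583 CPM (2.30-fold), 2.00-fold and 1.73-fold, whereas its partner chain C8b was 1.23-fold, 1.01-fold and 0.781-fold and C8g 1.20-fold, 0.983-fold and 0.934-fold. C4bp, a cofactor in the cleavage of C4b protein, stood at 333 and 769, 339 and 796, and 383 and 910 CPM, a steady 2.31-fold, 2.35-fold and 2.38-fold. Clu was 2.07-fold, 1.82-fold and 1.93-fold higher, Serping1, the C1 inhibitor, 1.98-fold, 1.63-fold and 1.80-fold, Vtn 1.64-fold, 1.35-fold and 1.23-fold and Cfi 1.64-fold, 1.31-fold and 1.20-fold. Upstream of C3, C1rb, a near-copy of C1ra, was 2.07-fold higher (1.64 to 2.64) in small barcodes on 102 and 239 UMIs. In middle barcodes it was 1.87-fold (0.863 to 4.23) on 12 and 19 UMIs. C1ra itself was 1.81-fold higher in small barcodes, on 5003 and 10255 UMIs. How reads that match both were assigned is not stated, so the split between C1ra and C1rb is uncertain.

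Soluble genes of the lectin pathway other than Fcna had ratios on both sides of 1. Mbl2, a mannose-binding lectin, stood at 1198 and 887, 959 and 583, and 525 and 328 CPM, or 0.740-fold, 0.607-fold and 0.624-fold. Masp2, a serine protease that such lectins activate, stood at 1.21-fold, 1.03-fold and 0.922-fold. Masp1, a related protease, stood at 0.979-fold, 1.63-fold and 1.59-fold (1.42 to 1.79), and Mbl1, a further mannose-binding lectin, at 1.31-fold, 1.23-fold and 1.41-fold, both chosen after their values were seen. C1s1 was 1.51-fold, 1.39-fold and 1.39-fold higher, well under the C1q chains with which its protein assembles.

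**Figure D5:**
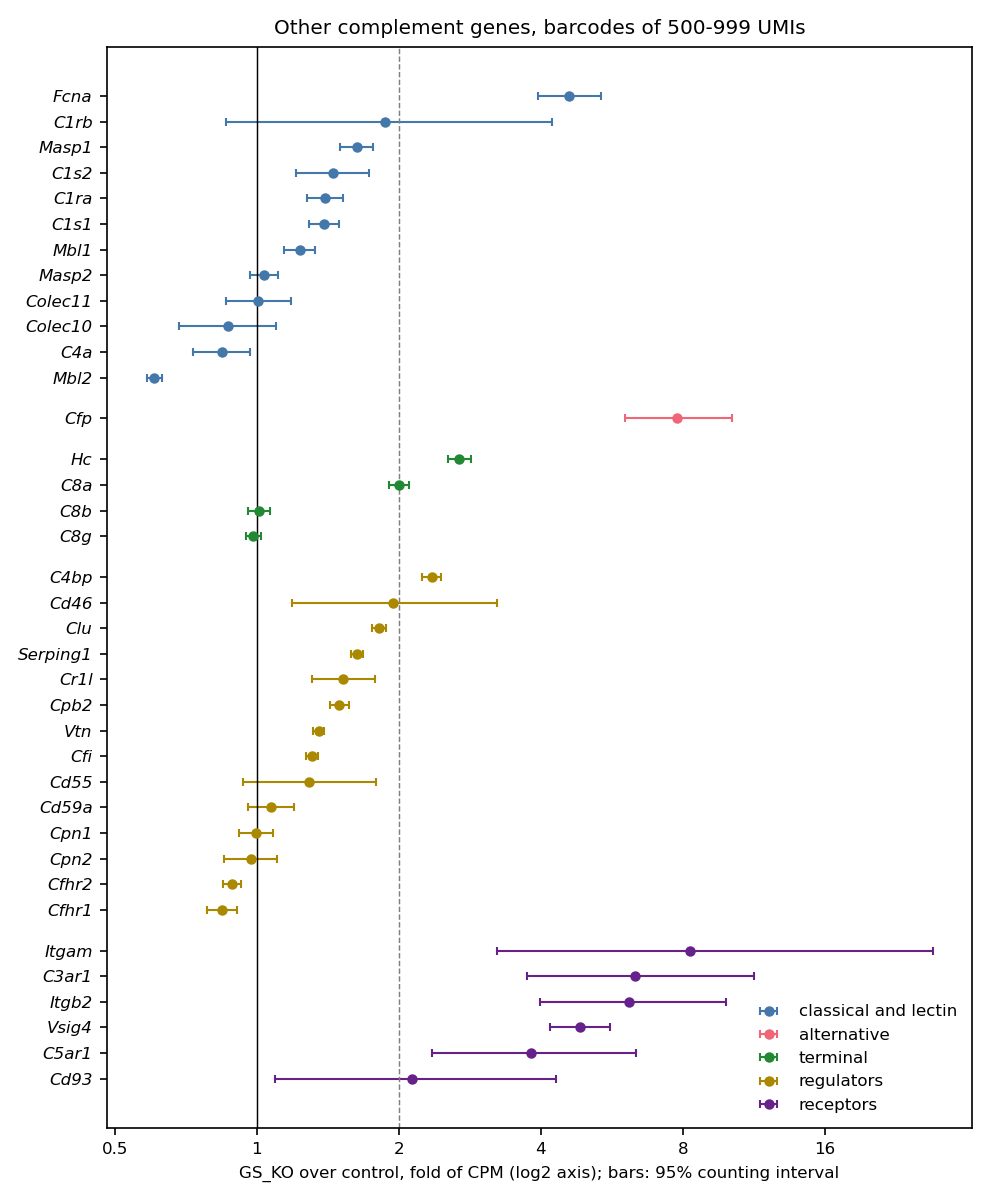
GS_KO over control ratio of CPM (log2 axis) of other complement genes with at least 20 UMIs in middle barcodes, grouped by role, with 95% counting intervals. The dashed line is 2-fold. Receptors other than Cd93, Cfp and Fcna lie furthest right and Mbl2 furthest left.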

How the data were processed

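UMI counts per gene and barcode of the 2 libraries were used as deposited. Per the file headers the matrices were written by Cell Ranger 8.0.0, and per the submitters' processing notes the build was mm10. The tables reach down to barcodes of 119 and 123 UMIs and total 61635695 and 57973740 UMIs. Members, gene lists and tests were chosen with earlier results of these data known, and the comparisons by Kupffer marker barcode, per hepatocyte marker UMI and across sizes were added after values had been seen.

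Counts were summed by barcode size with pandas 2.3.3, numpy 2.4.6 and scipy 1.17.1 under Python 3.11.15 (figures, matplotlib 3.10.9) and scaled to CPM. Levels carry exact Poisson 95% intervals and ratios exact conditional (Clopper-Pearson) ones. Log2 ratios have 0.5 UMIs added to each sum. A gene was tested for 2-fold at 20 or more UMIs in both libraries together. Ratios and their intervals were tested on simulated data. Those counts were Poisson draws for each gene, as the intervals assume, so the test does not bear on UMIs clustered in barcodes. No cells were filtered by type, doublets were not removed and no doublet caller was run. Named besides the members were C4a, Glul and Malat1, complement genes with at least 100 UMIs and 2-fold ratios, the 3 with most UMIs in each list, and the 5 closest to C1q and to C3 in pattern. Positions are from GENCODE M21. The alternatives changed the scaling, the barcodes used, the depth, free RNA and the added UMIs. Free RNA was estimated from the small barcodes of the same library. It was subtracted from each middle and large barcode at the library's median of 352 (control) or 304 (GS_KO) UMIs. That alternative thus takes 1 of the 3 sizes as background. Of the complement genes named by this rule, 1 is not reported here, although the counts over lists include it.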

Additional observations from a re-analysis of the deposited data

Results flagged for a closer look

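Barcodes outside the 3 sizes held the same genes. In barcodes of under 200 UMIs (7544 and 11607) the C1q chains summed to 50.1 CPM in the control and 369 CPM in GS_KO (7.38-fold), and the 6 hepatocyte-made members to 5312 and 10947 CPM (2.06-fold). In barcodes of 400 to under 500 UMIs (28249 and 8772) C1q summed to 125 and 2111 CPM (16.95-fold, 16.05 to 17.9), and the hepatocyte-made members to 5196 and 9433 CPM (1.82-fold). The 12 Kupffer markers were 12.2-fold higher in the GS_KO library there, more than in any of the 3 sizes. What sets these barcodes apart was not tested.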

How the results depend on the processing

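All 270 member ratios computed under alternatives stayed above 0 on the log2 scale, and 219 of them lay within the counting interval of the reported ratio. The summed C1q ratio in small barcodes (log2 2.84) was 2.67 with at most 5% mitochondrial UMIs, 2.91 without Kupffer marker barcodes and 3.00 in barcodes of 300 UMIs or more. In middle barcodes (3.06) it was 2.96 under median-of-ratios scaling, 2.75 without Kupffer marker barcodes and 2.95 with free RNA subtracted. In large barcodes (3.09) it was 2.56 without Kupffer marker barcodes and 6.32 at 2000 or more UMIs, where the control had 0 UMIs, so that this value depends on the 0.5 UMIs added and is no bound. The causes of these moves were not tested. Members at least 2-fold higher numbered 8 in small, 5 to 8 in middle and 4 to 6 in large barcodes, and other complement genes 12 to 14, 9 to 13 and 7 to 8. Moves of over 1.5 times were also seen for C6 in middle barcodes (1.56-fold with at most 5% mitochondrial UMIs), for C1qc in large barcodes without Kupffer marker barcodes (3.87-fold) and for C2 at 2000 or more UMIs (1.34-fold). Cfb in middle barcodes passed 2-fold (2.04-fold) when only the shallower ones were used. With a minimum of 1 UMI in each library, 15.2%, 18.1% and 15.1% of genes were 2-fold higher. No paired analysis was possible because each group is 1 library. With 23 to 29 control UMIs of each C1q chain in large barcodes, depth limits those ratios, and the spread between mice is not known.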
